A study of Saccharomyces cerevisiae with 27 samples.

Results

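The 10 genes described here make, break down or control glycogen and trehalose, the storage carbohydrates of budding yeast. GSY1, GSY2, GLC3 and GAC1 serve glycogen synthesis, GPH1 and GDB1 glycogen breakdown, TPS1, TPS2 and TSL1 trehalose synthesis, and NTH1 trehalose breakdown. They were taken by gene symbol from the platform's gene table. All 10 symbols were found, each on 1 probe set, among 5449 genes with a symbol.

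Glycogen synthase (Gsy1 and Gsy2) adds glucose from UDP-glucose to a growing chain and Glc3 branches it, while phosphorylase (Gph1) and debranching enzyme (Gdb1) release the glucose again. Tps1 and Tps2 make trehalose from UDP-glucose and glucose 6-phosphate in a complex with the regulatory subunit Tsl1, and neutral trehalase (Nth1) splits it. In cells growing on glucose, protein kinase A holds the transcripts of this system down. The stress factors Msn2 and Msn4 are known to raise them when glucose runs out or under stress.

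The series asks how a mutation in ECO1, the acetyltransferase that establishes sister chromatid cohesion, changes expression with and without FOB1 or RAD61. Fob1 stalls replication forks within the ribosomal DNA repeats, and Rad61 is the Wapl protein of yeast, which opens the cohesin ring. RNA of 27 cultures was measured on Affymetrix arrays, with 3 cultures of 1 isolate in each of 9 groups (n = 3 throughout). All strains grew at 30 °C in the rich medium YPD with CSM and were collected in exponential phase, and the optical density at collection is not stated in the labels. The later experiment date held the wild type w303a, the eco1-W216G strain SG156 and the fob1 deletion JG1830. The earlier date held the same fob1 deletion, the rad61 deletion SG297.1, the eco1 fob1 double mutant BH664 and the eco1 rad61 double mutant SG272.1. It also held JG1857, an mcd1 mutant with the meiotic cohesin subunit gene REC8 under the MCD1 promoter, and JG1856, which carries a fob1 mutation in addition. Wild type and the eco1-W216G single mutant are thus on another date than every double mutant, and the fob1 deletion is the only genotype on both.

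Levels are given as RMA intensity, a normalised brightness of a probe set that is comparable between arrays for 1 gene but not between genes. Differences are on the log2 scale, where 1 is a doubling, and ± is the limma standard error. A gene is said to have risen or fallen where limma's p, adjusted by Benjamini-Hochberg over all 5716 probe sets of that comparison, was under 0.05. Some counts are also given at an unadjusted limma p under 0.05. The share of all probe sets at that threshold was not counted, so these counts are descriptions with no background beside them. Counts under alternative fits mostly come without that fit's share of all probe sets, and show only how a count depends on the fit. In cultures, a change in the share of cells that express a gene and a change in RNA per cell cannot be told apart. The labels were checked first: ECO1 signal was 4.61 to 4.92 (log2 group means) in the strains labelled eco1 and 7.85 to 8.10 in the others, although the name W216G denotes a point mutation. FOB1 signal was 3.84 to 4.22 in the fob1 strains and 9.25 to 9.91 elsewhere, and RAD61 signal 3.77 and 3.93 in the rad61 strains and 6.80 to 7.29 elsewhere. A pair of arrays stood apart from their groups over all probe sets, replicate 2 of the later-date fob1 deletion (root mean square deviation 0.353) and replicate 2 of the rad61 deletion (0.295), against 0.112 to 0.239 for the other arrays. In the later-date fob1 deletion, replicate 2 lay 1.27 below the other two arrays for GSY1 and 0.76 below for GPH1 (log2), but 1.09 above for GAC1 and 0.72 above for TSL1. In the rad61 deletion, replicate 2 was 0.77 above the others for GAC1 and 0.62 above for GLC3.

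**Figure D1:**
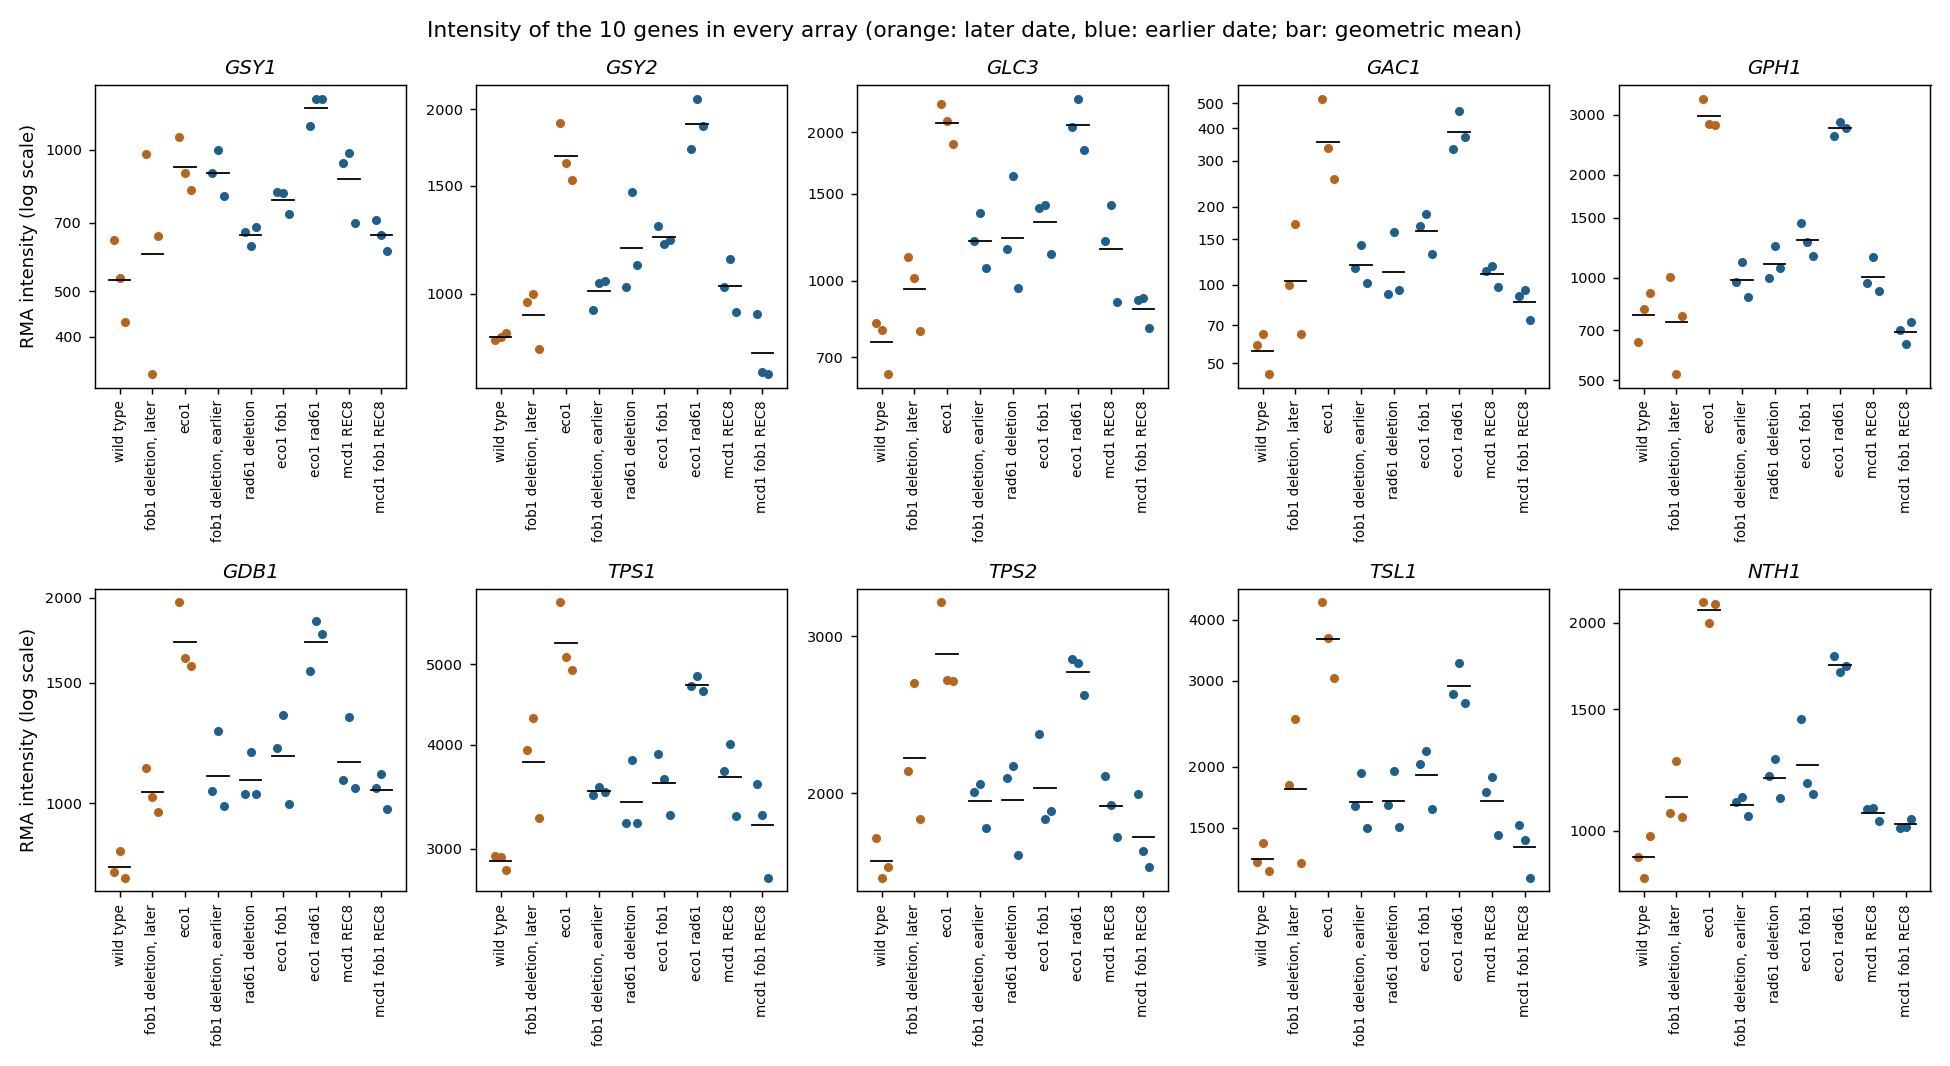
RMA intensity of each of the 10 genes (log axis, 1 panel per gene) in every array, by group, with orange points for the later date, blue points for the earlier date and a bar at the geometric mean of the 3 arrays. In all 10 panels the highest 2 group means are those of eco1-W216G and the eco1 rad61 double mutant.

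All 10 genes rose in eco1-W216G against wild type, a comparison within the later date, while 23.7% of all probe sets were called higher and 53.6% changed in either direction. Their median log2 difference was 1.14 (range 0.77 to 2.67), against -0.05 over all probe sets. For each of the 10, the lowest eco1-W216G array lay above the highest wild-type array, a separation that 29.4% of all probe sets showed in this direction. The glycogen genes GAC1 and GPH1 had the highest differences, and the trehalose genes TPS2 and TPS1 stood at the lower end together with GSY1.

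Among the genes of glycogen synthesis, GAC1, whose product brings the phosphatase Glc7 to glycogen synthase and so activates it, was 58.6, 64.5 and 45.6 in the wild-type arrays and 519.6, 336 and 256 in eco1-W216G. This was a 6.38-fold rise (2.67 ± 0.28, adjusted p = 9.8e-08). GAC1 was the dimmest of the 10 probe sets, at the 8.76th percentile of mean signal among all probe sets, and the eco1-W216G arrays differed among themselves, yet the lowest stood well above all wild-type arrays. The branching enzyme gene GLC3 was 823, 795 and 648 in wild type and 2276, 2102 and 1896 in eco1-W216G, a difference of 1.47 ± 0.18 (adjusted p = 6e-07). GSY2, the main glycogen synthase of cells entering stationary phase, was 842, 849 and 864 against 1895, 1633 and 1529.9, a difference of 0.98 ± 0.12 (adjusted p = 7.3e-07). Its wild-type arrays were close together and all eco1-W216G arrays were high. The other synthase gene, GSY1, was 644, 533 and 429.8 in wild type and 1064, 894 and 820.0 in eco1-W216G. Its wild-type arrays spread widely, and its difference of 0.80 ± 0.24 had the highest adjusted p of the 10 (0.0067). Cross-hybridisation between the similar genes GSY1 and GSY2 was not tested.

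Both genes of glycogen breakdown rose. GPH1, encoding glycogen phosphorylase, was 645, 807 and 899 in wild type and 3347, 2825 and 2796 in eco1-W216G, 3.84-fold higher (1.94 ± 0.17, adjusted p = 4.9e-09). GDB1, encoding the debranching enzyme, was 792, 852 and 778 against 1968, 1634 and 1589, a difference of 1.09 ± 0.12 (adjusted p = 1.3e-07). In both genes all wild-type arrays were low and all eco1-W216G arrays high.

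The 3 genes of trehalose synthesis also rose, TSL1 by the largest log2 difference of the 3. TSL1, a regulatory subunit of the synthase complex, was 1275, 1398 and 1221 in wild type and 4342, 3672 and 3046 in eco1-W216G, 2.82-fold higher (1.49 ± 0.18, adjusted p = 8.7e-07). TPS1, the synthase subunit, was 2941, 2933 and 2830.5 against 5931, 5096 and 4923, a difference of 0.87 ± 0.10 (adjusted p = 6.5e-07). TPS2, the phosphatase subunit that removes the phosphate from trehalose 6-phosphate, was 1782, 1609 and 1655 against 3272, 2679.8 and 2672, a difference of 0.77 ± 0.12 (adjusted p = 1.6e-05). None of these genes had overlapping arrays. The gene that opposes them, NTH1 for neutral trehalase, was 916, 856 and 982 in wild type and 2141, 1999 and 2128 in eco1-W216G. Its rise of 1.19 ± 0.08 was 2.28-fold and had the lowest adjusted p of the 10 (1.3e-10), with arrays that were tight in both groups. Genes of synthesis and genes of breakdown thus rose together in this strain. Replicate 1 was the highest of the 3 eco1-W216G arrays in all 10 genes. Without it, and without any other single array of either group, all 10 were still called higher.

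**Figure D2:**
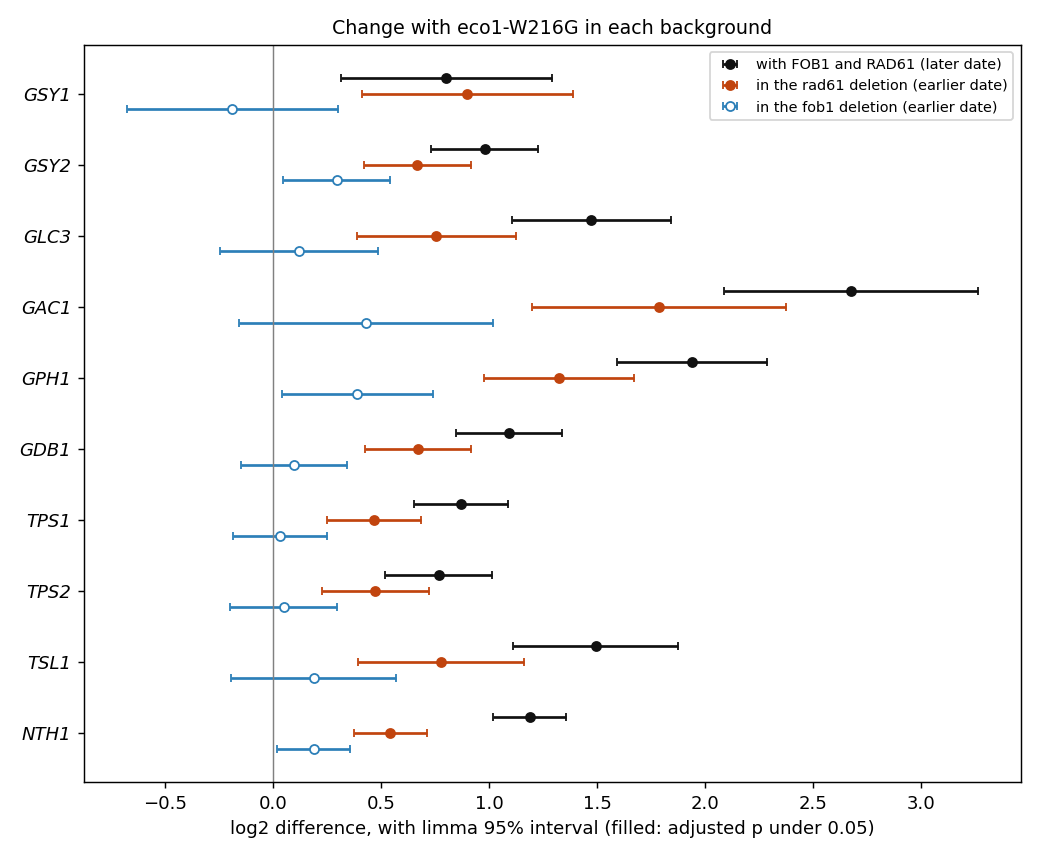
Log2 difference between strains with and without eco1-W216G, with the limma 95% interval, for each of the 10 genes in 3 backgrounds: FOB1 and RAD61 present (black), rad61 deletion (red) and fob1 deletion (blue). Filled points have an adjusted p under 0.05: all 10 genes in the black and red series, with medians of 1.14 and 0.71, and none in the fob1 deletion, with a median of 0.16.

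All 10 genes also rose with eco1-W216G in the rad61 deletion, compared within the earlier date. There 5.18% of all probe sets were called higher and 6.72% changed in either direction, so that 10 of the 296 probe sets called higher were these genes. The median difference of the 10 was 0.71 (range 0.47 to 1.79), against -0.01 over all probe sets. Every array of the eco1 rad61 double mutant was above every array of the rad61 deletion for each gene, which held for 15.4% of all probe sets in this direction.

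GAC1 again had the highest difference: it was 92.1, 159 and 95.4 in the rad61 deletion and 332, 466 and 372 in the double mutant, 3.45-fold higher (1.79 ± 0.28, adjusted p = 0.00038). The phosphorylase gene GPH1 was 994, 1238 and 1069 against 2609.7, 2862 and 2753, 2.5-fold higher (1.32 ± 0.17, adjusted p = 2.9e-05). For GAC1 the array of the rad61 deletion that stood apart, replicate 2, was the highest of that group, and it still lay below the lowest double-mutant array. GSY1, a synthase gene, was 669.6, 623 and 684 against 1122, 1285 and 1282 (0.90 ± 0.24, adjusted p = 0.023). GSY2 was 1027, 1467 and 1112 against 1723, 2079.6 and 1879 (0.67 ± 0.12, adjusted p = 0.0012). The arrays of the rad61 deletion were close together for GSY1, whereas GSY2 had a high replicate 2. GLC3, the branching enzyme gene, was 1157, 1630.1 and 966 against 2048, 2337 and 1836 (0.76 ± 0.18, adjusted p = 0.012). GDB1, the debranching enzyme gene, was 1032, 1188 and 1031 against 1564, 1851 and 1768 (0.67 ± 0.12, adjusted p = 0.00097).

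The trehalose genes rose by 0.47 to 0.78. TSL1 was 1674, 1964 and 1506 in the rad61 deletion and 2823, 3263 and 2707 in the double mutant (0.78 ± 0.18, adjusted p = 0.013). The synthase gene TPS1 was 3222, 3831 and 3223 against 4703, 4834 and 4643 (0.47 ± 0.10, adjusted p = 0.0085). TPS2, its partner phosphatase, was 2080.0, 2148 and 1705 against 2826, 2799.6 and 2579 (0.47 ± 0.12, adjusted p = 0.018). In these 3 genes the rad61 deletion arrays were the more spread on the log2 scale, with replicate 2 the highest. The trehalase gene NTH1 was 1201, 1269.8 and 1115 against 1790.4, 1696 and 1733 (0.54 ± 0.08, adjusted p = 0.00021), low in all 3 arrays of one group and high in all 3 of the other. The count of 10 fell to 6 without replicate 3 of the rad61 deletion and to 6 without replicate 2 of the double mutant. It was 7 when only these 2 groups were fitted, and 10 without both arrays that stood apart.

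In the fob1 deletion, none of the 10 genes was called with eco1-W216G in the comparison within the earlier date, where 0.787% of all probe sets were called. Of the 10, 3 had a positive value with an unadjusted p under 0.05, namely GSY2, GPH1 and NTH1. These were also the 3 genes whose arrays did not overlap, a separation shown upward by 11.2% of all probe sets. The median difference of the 10 was 0.16 (range -0.19 to 0.43), against 0.01 over all probe sets.

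For GAC1 the arrays were 117, 142 and 102 in the fob1 deletion and 169, 187 and 132 in the eco1 fob1 double mutant, so that the groups overlapped. The difference was 0.43 ± 0.28 with a 95% interval of -0.15 to 1.02 (adjusted p = 0.64). GPH1 was 972, 1108 and 877 against 1444, 1275 and 1159, with a difference of 0.39 ± 0.17 and an interval of 0.04 to 0.74 (adjusted p = 0.37). The phosphorylase gene was thus slightly higher in every double-mutant array, by an amount that did not pass the test. NTH1 was 1101, 1120.4 and 1051 against 1449.8, 1172 and 1131, with a difference of 0.19 ± 0.08 and an interval of 0.02 to 0.36 (adjusted p = 0.37). GSY2 was 939.9, 1042 and 1051 against 1288, 1207 and 1225, with a difference of 0.30 ± 0.12 and an interval of 0.05 to 0.54 (adjusted p = 0.33). Of the synthase genes, GSY1 had the only negative value, at 895, 998 and 798 against 813, 811 and 731 (-0.19 ± 0.24, adjusted p = 0.86), with overlapping arrays. GLC3 was 1205, 1373 and 1061 against 1401, 1422 and 1134 (interval -0.25 to 0.49). GDB1 was 1043, 1277 and 989 against 1203, 1347 and 997 (interval -0.15 to 0.34). Replicate 3 was low in both groups for these 2 genes of chain branching and debranching.

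Among the trehalose genes, TPS1 was 3484, 3564 and 3511 in the fob1 deletion and 3902, 3641 and 3294 in the double mutant, with an interval of -0.18 to 0.25. TPS2 was 2006, 2047 and 1829.6 against 2333, 1872 and 1910.4, with an interval of -0.20 to 0.30. TSL1 was 1661, 1944 and 1498 against 2027, 2155 and 1642, with an interval of -0.19 to 0.57. All 3 genes of trehalose synthesis overlapped between the groups. No alternative processing and no left-out array gave a called gene among the 10 in this comparison.

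Whether the change with eco1-W216G differed between backgrounds was tested directly, as the change in a deletion strain minus the change with FOB1 and RAD61 present. Each change was taken within 1 date, so the background of a change and its date cannot be told apart. With the fob1 deletion, the change was smaller for all 10 genes, where 18% of all probe sets were called lower and 39.2% in either direction. The median of the 10 was -0.997, against 0.05 over all probe sets. GAC1 had the largest such value, -2.24 ± 0.40 (adjusted p = 0.00017), followed by GPH1 at -1.55 ± 0.24 (adjusted p = 3.4e-05). GLC3 and TSL1 came next at -1.35 ± 0.25 and -1.30 ± 0.26. The trehalase gene NTH1 had the lowest adjusted p, 1.2e-06, at -0.999 ± 0.12. GDB1 had a nearly equal value of -0.996 ± 0.17. The synthase gene GSY1 was at -0.99 ± 0.33 with the highest adjusted p of the 10, 0.023. TPS1, TPS2 and GSY2 lay between -0.84 and -0.68. The call for GSY1 was lost without replicate 1 of eco1-W216G (adjusted p = 0.056), without replicate 2 of the earlier-date fob1 deletion (adjusted p = 0.056) and without replicate 3 of wild type (adjusted p = 0.068).

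With the rad61 deletion, the change was smaller for 2 of the 10 genes, where 11.6% of all probe sets were called lower and 23.5% in either direction, a share near that of the 10 genes. These were NTH1 at -0.64 ± 0.12 (adjusted p = 0.00045) and GLC3 at -0.72 ± 0.25 (adjusted p = 0.041). The median of the 10 was -0.52, against 0.03 over all probe sets. TSL1, the regulatory subunit gene of the trehalose complex, was at -0.72 ± 0.26 with an adjusted p of 0.0502, and TPS1 at -0.40 ± 0.15 (adjusted p = 0.054). GAC1 was at -0.89 ± 0.40 with a 95% interval of -1.72 to -0.06 (adjusted p = 0.11). GSY1 alone was positive, at 0.10 ± 0.33 with an interval of -0.59 to 0.79. The count of 2 rose to 6 with only the groups compared in the fit and to 7 with the replicate number as a block, where the numbers pair the rad61 strains but not eco1-W216G with wild type. Leaving out single arrays gave 1 without replicate 1 or 2 of eco1-W216G, replicate 2 of the rad61 deletion, replicate 1 or 3 of the eco1 rad61 double mutant or replicate 2 of wild type, and 4 without replicate 3 of the rad61 deletion. The call for GLC3 was lost in 8 of 19 alternatives, with adjusted p-values up to 0.12.

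The 2 deletions could also be set against each other within the earlier date. The change with eco1-W216G in the rad61 deletion minus that in the fob1 deletion was called for none of the 10 genes by limma. Over all probe sets, 1.36% were called. All 10 genes were positive and had an unadjusted p under 0.05, a threshold at which the share of all probe sets was not counted. The median was 0.58, against -0.01 over all probe sets. GPH1 came nearest, at 0.93 ± 0.24 (adjusted p = 0.052), then GDB1 at 0.57 ± 0.17 (adjusted p = 0.089) and GAC1 at 1.35 ± 0.40 (adjusted p = 0.094). GSY1, which had opposite signs in the 2 backgrounds, was at 1.09 ± 0.33 with an interval of 0.40 to 1.78 (adjusted p = 0.11). With the replicate numbers as a block, which pair the arrays in both backgrounds, 7 of the 10 were called higher, and 8 were called higher without both arrays that stood apart. With only the 4 groups compared in the fit, 3 were called. Without replicate 1 of the eco1 fob1 double mutant the count was 2, and without replicate 2 of the rad61 deletion it was 2. The share of all probe sets called in these alternatives is not given here, so these counts are no result about the 10 genes.

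The double mutants themselves differed, within the same date. Of the 10 genes, 8 were lower in the eco1 fob1 than in the eco1 rad61 double mutant, where 3.43% of all probe sets were called lower and 4.97% in either direction. The median of the 10 was -0.60, against 0.02 over all probe sets. The arrays of the eco1 fob1 double mutant lay below those of the other for all 10 genes, as they did for 14.8% of all probe sets. GPH1 and GAC1 were the furthest apart, GPH1 at -1.09 ± 0.17 (adjusted p = 0.00037) and GAC1 at -1.26 ± 0.28 (adjusted p = 0.01). For NTH1 the difference was -0.48 ± 0.08 (adjusted p = 0.00095), for GSY2 -0.61 ± 0.12 and for GDB1 -0.55 ± 0.12. GLC3, TPS1 and TPS2 passed with adjusted p-values from 0.031 to 0.037. The genes that did not pass were TSL1 at -0.60 ± 0.18 (adjusted p = 0.062) and GSY1 at -0.65 ± 0.24 (adjusted p = 0.12). The count was 3 without replicate 3 of the eco1 fob1 double mutant, 5 without its replicate 2, 5 without replicate 1 of the eco1 rad61 double mutant and 4 without its replicate 2.

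Strains with a deletion and no eco1-W216G were also set against wild type. In the later-date fob1 deletion against wild type, 5 of the 10 rose, where 8.73% of all probe sets were called higher and 15.6% in either direction. The median of the 10 was 0.36, against 0.02 over all probe sets. The called genes served both carbohydrates: GAC1, GDB1, TPS1, TPS2 and NTH1. GAC1 was 58.6, 64.5 and 45.6 in wild type and 100.1, 172 and 64.7 in the fob1 deletion (0.90 ± 0.28, adjusted p = 0.036), and its lowest fob1 array barely cleared the highest wild-type array. TPS1 had the lowest adjusted p, with 3943, 4309 and 3267 in the deletion (0.39 ± 0.10, adjusted p = 0.015). GDB1 was 1127, 1022 and 971 (0.36 ± 0.12, adjusted p = 0.041), and its arrays were all above those of wild type. TPS2 was 2118, 2656 and 1871 (0.38 ± 0.12, adjusted p = 0.034). NTH1 was 1061, 1262 and 1046 (0.29 ± 0.08, adjusted p = 0.021). For TPS2 and NTH1 replicate 2 was the highest array.

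The array that stood apart, replicate 2, was far from the others for further members in this group. GPH1 was 1006, 522 and 772 in the fob1 deletion (-0.07 ± 0.17, adjusted p = 0.81), with arrays on both sides of wild type. GSY1 was 981, 334 and 657 (0.18 ± 0.24, adjusted p = 0.64), with replicate 2 below and replicates 1 and 3 above all wild-type arrays. TSL1 was 1834, 2505 and 1268 (0.47 ± 0.18, adjusted p = 0.082). GLC3 was 1117, 1012 and 793 and GSY2 971, 999.5 and 812, and neither was called. The count of 5 rested on single arrays and on the fit. It was 1 without replicate 1 or without replicate 2 of the fob1 deletion, 3 without replicate 1 of wild type and 1 without replicate 2 or 3 of wild type. It was 0 when only these 2 groups were fitted and 3 after repeated quantile normalization. Without replicate 2 of the fob1 deletion, none of the 5 genes kept its call (limma adjusted p from 0.079 to 0.21). The 1 gene counted there was another member.

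The same fob1 deletion isolate was run on both dates, and none of the 10 genes differed between the dates by limma, where 4.81% of all probe sets did. Of the 10, 2 had an unadjusted p under 0.05, GSY1 at 0.58 ± 0.24 and GPH1 at 0.41 ± 0.17 (earlier minus later, adjusted p = 0.16 for each). For both, the later-date replicate 2 was the lowest of the 6 arrays. Without replicate 1 of the later date, 2 genes were called.

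Within the earlier date, none of the 10 genes differed between the rad61 and fob1 deletions by limma, where 0.035% of all probe sets did, and none had an unadjusted p under 0.05. The values ran from -0.44 for GSY1 to 0.23 for GSY2. The 95% interval for GAC1 was -0.68 to 0.50 and for GPH1 -0.19 to 0.51. GSY1 arrays were 895, 998 and 798 in the fob1 deletion and 669.6, 623 and 684 in the rad61 deletion, the only 1 of the 10 genes whose arrays did not overlap (4.65% of all probe sets in this direction).

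**Figure D3:**
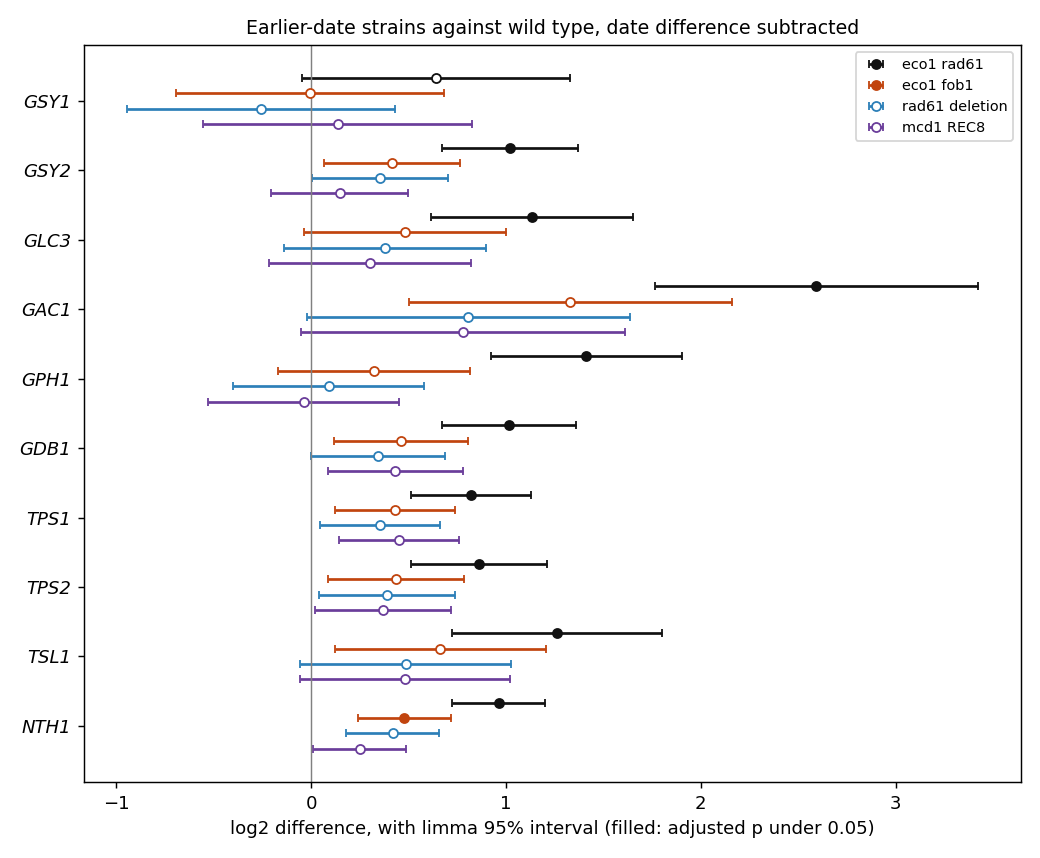
Log2 difference from wild type, with the limma 95% interval, for each of the 10 genes in 4 strains of the earlier date, with the date difference seen in the fob1 deletion subtracted. Filled points have an adjusted p under 0.05: 9 genes in the eco1 rad61 double mutant, NTH1 alone in the eco1 fob1 double mutant, and none in the rad61 deletion or the mcd1 REC8 strain.

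Set against wild type of the other date, with the date difference of the fob1 deletion subtracted, 9 of the 10 genes were higher in the eco1 rad61 double mutant. There 10.7% of all probe sets were called higher and 16.3% in either direction. The median of the 10 was 1.02, against 0.00 over all probe sets. GAC1 was 6.03-fold higher (2.59 ± 0.40, adjusted p = 0.0002) and GPH1 2.66-fold higher (1.41 ± 0.24, adjusted p = 0.00045). TSL1 and GLC3 were at 1.26 ± 0.26 and 1.13 ± 0.25. The synthase gene GSY1 was the exception, at 0.64 ± 0.33 (adjusted p = 0.19). Against the eco1-W216G single mutant, none of the 10 was called in this double mutant by limma, where 9.52% of all probe sets were, and GPH1 alone had an unadjusted p under 0.05 (-0.53 ± 0.24, adjusted p = 0.16). Without replicate 1 of the later-date fob1 deletion 1 gene was called. The 95% intervals of that difference were wide, -0.91 to 0.75 for GAC1 and -0.31 to 0.39 for GSY2.

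In the eco1 fob1 double mutant 1 of the 10 genes, NTH1, was higher than in wild type (0.48 ± 0.12, adjusted p = 0.034), where 1.21% of all probe sets were called higher and 1.77% in either direction. Of the 10, 7 had a positive value with an unadjusted p under 0.05, among them GAC1 at 1.33 ± 0.40 (adjusted p = 0.074). The share of all probe sets at that threshold was not counted. GSY1 was at -0.01 ± 0.33. The NTH1 call depended on the setting. It was lost, with no gene called, without replicate 1 or 2 of the double mutant, replicate 1 or 3 of the earlier-date fob1 deletion, replicate 2 of the later-date fob1 deletion or replicate 2 or 3 of wild type, and 5 genes were called without replicate 3 of the later-date fob1 deletion. No gene was called with only the groups compared, after repeated quantile normalization or after median centring. With no date difference subtracted 8 genes were called higher, with the date as a random block 5, and with the replicate number as a block 7. These 3 counts have no share of all probe sets beside them. The replicate numbers pair the double mutant with the earlier-date fob1 deletion (r from 0.35 to 0.64) but not the later-date fob1 deletion with wild type (r from 0.038 to 0.39).

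Against the eco1-W216G single mutant, 8 of the 10 genes were lower in the eco1 fob1 double mutant, where 11.7% of all probe sets were called lower and 26.6% in either direction. The median of the 10 was -0.76, against 0.04 over all probe sets. GPH1 was 3.07-fold lower (-1.62 ± 0.24, adjusted p = 4.6e-05) and GAC1 2.54-fold lower (-1.34 ± 0.40, adjusted p = 0.017). NTH1 was at -0.71 ± 0.12 (adjusted p = 0.00014) and GLC3 at -0.99 ± 0.25 (adjusted p = 0.006). GSY1 at -0.81 ± 0.33 (adjusted p = 0.079) and TPS2 at -0.33 ± 0.17 (adjusted p = 0.15) did not pass. The count was 5 without replicate 1 of eco1-W216G, 4 without replicate 3 of the later-date fob1 deletion and 5 with only the groups compared in the fit.

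None of the 10 genes was called in the rad61 deletion against wild type by limma, where 0.315% of all probe sets were, and 4 had an unadjusted p under 0.05. NTH1 was at 0.42 ± 0.12 (adjusted p = 0.1), GAC1 at 0.81 ± 0.40 (adjusted p = 0.32) and GSY1 at -0.26 ± 0.33. With no date difference subtracted, 6 of the 10 were called higher, and with the date as a random block 1 was, with no share of all probe sets beside either count. Without replicate 3 of the later-date fob1 deletion the count was 1.

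The mcd1 REC8 strain had none of the 10 called against wild type by limma, where 0.07% of all probe sets were, and 4 had an unadjusted p under 0.05. TPS1 was at 0.45 ± 0.15 (adjusted p = 0.16) and GPH1 at -0.04 ± 0.24. The count was 5 with no date difference subtracted, 1 with the date as a random block and 1 without replicate 3 of the later-date fob1 deletion. No share of all probe sets stands beside these counts.

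Within the earlier date, the mcd1 fob1 REC8 strain had lower values than the fob1 deletion in all 10 genes, with a median of -0.32 against 0.03 over all probe sets, but none was called by limma, where 0.297% of all probe sets were. Of the 10, 3 had an unadjusted p under 0.05, GPH1, GSY2 and GLC3. GPH1 was 972, 1108 and 877 in the fob1 deletion and 700.1, 639 and 741 in the mcd1 fob1 REC8 strain (-0.50 ± 0.17, adjusted p = 0.35). GSY2 was 939.9, 1042 and 1051 against 928, 746 and 741 (-0.34 ± 0.12, adjusted p = 0.4). The arrays did not overlap for either gene, which held downward for 6 of the 10 genes and for 6.37% of all probe sets.

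Between the mcd1 REC8 strains with and without fob1, all 10 genes were again lower with the fob1 mutation, with a median of -0.33 against 0.02 over all probe sets, and none was called by limma, where 0.0175% of all probe sets were. GPH1 was 963, 1145 and 913 with FOB1 and 700.1, 639 and 741 without it (-0.53 ± 0.17, adjusted p = 0.99). GSY2 was 1025, 1141 and 934 against 928, 746 and 741 (-0.36 ± 0.12, adjusted p = 0.99). GPH1, GSY2 and GLC3 were again the 3 genes with an unadjusted p under 0.05. The 2 comparisons share the arrays of the mcd1 fob1 REC8 strain.

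**Figure D4:**
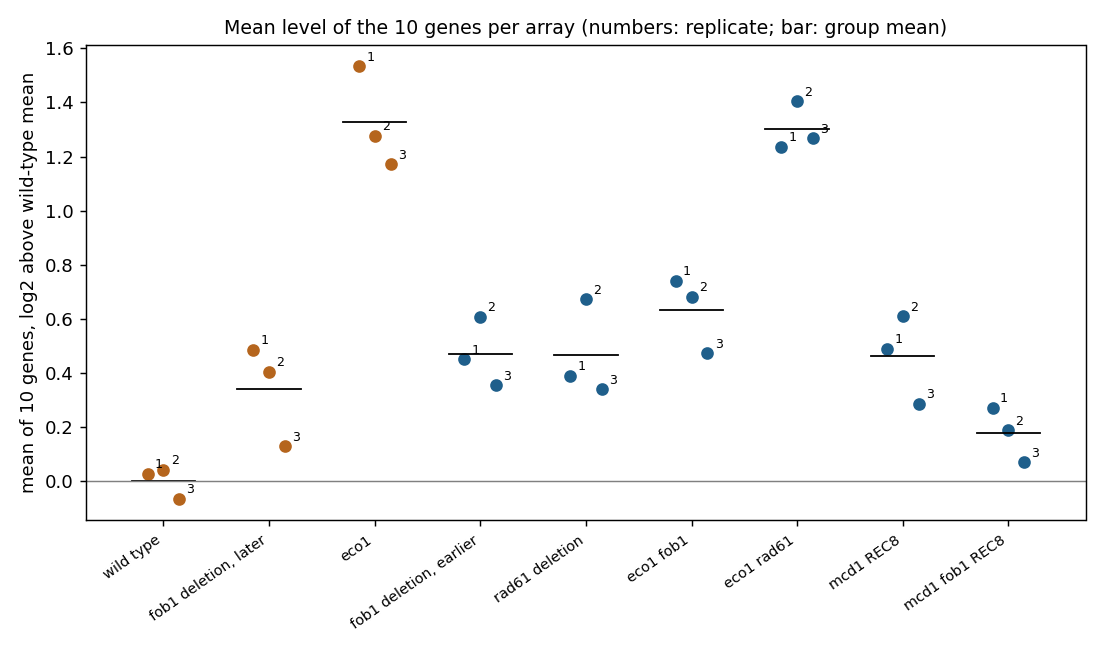
Mean over the 10 genes of the log2 difference from the wild-type mean, for each array (points, numbered by replicate; orange for the later date, blue for the earlier date) with a bar at the group mean. Arrays of eco1-W216G lie between 1.17 and 1.53 and those of the eco1 rad61 double mutant between 1.24 and 1.40, above all arrays of the other groups.

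Taken as 1 value per array, the mean of the 10 genes above wild type was 1.33 ± 0.19 (log2, SD, n = 3) in eco1-W216G and 1.30 ± 0.09 in the eco1 rad61 double mutant. It was 0.63 ± 0.14 in the eco1 fob1 double mutant, 0.47 ± 0.13 and 0.34 ± 0.19 in the fob1 deletion of the earlier and later date, 0.47 ± 0.18 in the rad61 deletion and 0.46 ± 0.16 in the mcd1 REC8 strain. The mcd1 fob1 REC8 strain was at 0.18 ± 0.10 and wild type at 0.00 ± 0.06. The first 2 groups overlapped each other and lay apart from the rest. The eco1 fob1 double mutant (0.47 to 0.74) overlapped the ranges of the rad61 deletion (0.34 to 0.67) and the mcd1 REC8 strain (0.29 to 0.61). It also overlapped the fob1 deletion of the earlier date (0.35 to 0.61) and of the later date (0.13 to 0.48). These values span both dates with no date difference subtracted. Wild type was the lowest of the 9 groups for 8 of the 10 genes, and the mcd1 fob1 REC8 strain for GSY2 and GPH1.

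The 10 genes varied together over the 27 arrays, with a median Pearson r of 0.89 over their 45 pairs, from 0.48 for GSY1 with TPS2 to 0.97. After each group's mean was removed, the median r was 0.52, from -0.38 for GSY1 with NTH1 to 0.93, so replicate cultures also differed in the same direction for most of these genes. Without the later-date fob1 group, which holds 1 of the arrays that stood apart, the median was 0.58 and the value for GSY1 with NTH1, again the lowest, was 0.016. GSY1 stood apart, with a mean r of 0.62 to the other members against 0.83 to 0.89 for the rest. GAC1 spanned the widest range of group means, 2.79 on the log2 scale, and GPH1 2.11, against 0.77 for TPS2 and 0.87 for TPS1. These correlations are descriptions over arrays that share strains and dates.

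Outside the 10, the genes whose group means followed the mean of the members most closely were CIT1, GAD1, AIM17, RIM4 and YMR196W, with r from 0.98 to 0.995 over the 9 groups. They were the first 5 of 428 genes whose group means spanned at least 1 on the log2 scale, of which 38 had an r over 0.95. CIT1 encodes the mitochondrial citrate synthase, GAD1 glutamate decarboxylase and RIM4 a meiotic RNA-binding protein. Of the members themselves, GAC1 had an r of 0.993 and GSY1 0.842 with that mean, to which each contributes.

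**Figure D5:**
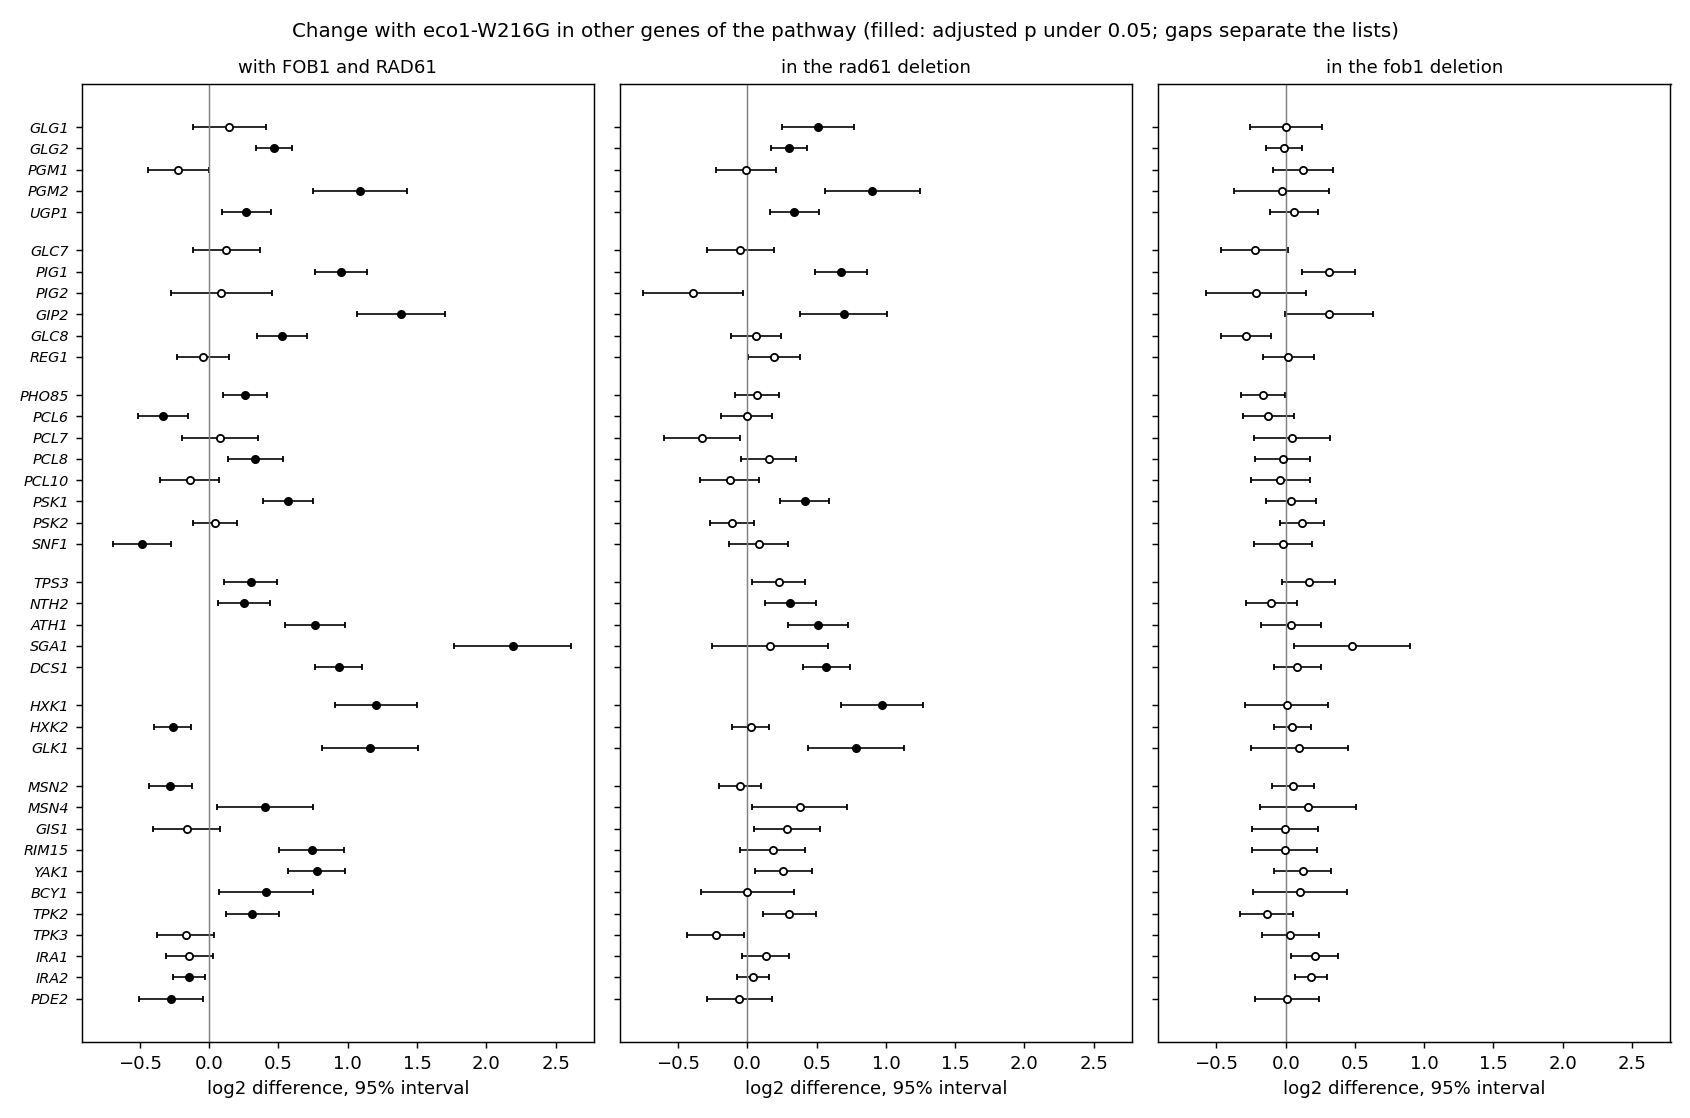
Log2 difference between strains with and without eco1-W216G, with the limma 95% interval, for 38 other genes of glycogen and trehalose metabolism and its control, in 3 backgrounds (panels). Filled points have an adjusted p under 0.05: 27 genes with FOB1 and RAD61 present, 12 in the rad61 deletion and none in the fob1 deletion.

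A further 38 genes listed for this pathway were tested. In eco1-W216G against wild type 21 rose and 6 fell, with a median of 0.26, where 23.7% of all probe sets were called higher and 53.6% in either direction. Without replicate 1 of eco1-W216G 15 rose and 7 fell, and without replicate 3 of wild type 17 rose and 4 fell. Substrate supply rose in part: PGM2, the main phosphoglucomutase, was at 1.09 ± 0.16 and UGP1, which makes UDP-glucose, at 0.27 ± 0.08. The glycogenin gene GLG2 was at 0.47 ± 0.06. Of the Glc7 targeting subunits, PIG1, the paralogue of GAC1, was 220.0, 212 and 211 in wild type and 479.5, 415 and 357 in eco1-W216G (0.95 ± 0.09, adjusted p = 2.4e-08). GIP2 rose as well (1.38 ± 0.15). GLC8, which acts on Glc7 but is not a targeting subunit, also rose (0.52 ± 0.09), while GLC7 itself was at 0.12 and was not called. Among enzymes that phosphorylate glucose, HXK1 (1.20 ± 0.14) and GLK1 (1.16 ± 0.17) rose and HXK2, the isoenzyme of growth on glucose, fell by 0.26.

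Among other genes of trehalose and glycogen turnover, SGA1, the glucoamylase of sporulating cells, was 104, 102 and 95.1 in wild type and 482, 462 and 431 in eco1-W216G, 4.56-fold higher (adjusted p = 1.3e-08). ATH1, the acid trehalase, rose by 0.76 and DCS1, an inhibitor of neutral trehalase, by 0.93. The paralogues of the members had smaller differences, which were not tested against each other: TPS3 by 0.30, where TSL1 rose by 1.49, and NTH2 by 0.25, where NTH1 rose by 1.19. Of the kinases and cyclins listed for the control of glycogen, PSK1, PCL8 and PHO85 rose (0.57, 0.33 and 0.26), and SNF1 and PCL6 fell (-0.49 and -0.33). In the protein kinase A pathway, YAK1 (0.78), RIM15 (0.74), MSN4 (0.40), BCY1 (0.41) and TPK2 (0.31) rose, and MSN2 (-0.28), PDE2 (-0.28) and IRA2 (-0.15) fell.

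In the rad61 deletion 12 of the 38 rose with eco1-W216G and none fell, with a median of 0.17, where 5.18% of all probe sets were called higher and 6.72% in either direction. The genes were HXK1 (0.97 ± 0.14), PGM2 (0.90 ± 0.16), GLK1 (0.78 ± 0.17), GIP2, PIG1, DCS1, ATH1, GLG1, PSK1, UGP1, NTH2 and GLG2, the last 9 at 0.30 to 0.69. The count of 12 was 8 with only the groups compared in the fit and 9 without replicate 3 of the rad61 deletion. It was 14 without replicate 2 of the rad61 deletion. With the replicate number as a block 16 rose and 1 fell. SGA1 was 117, 252 and 133 in the rad61 deletion and 179, 195 and 158 in the double mutant and was not called. In the fob1 deletion none of the 38 was called by limma, against 0.787% of all probe sets, with a median of 0.03 and 6 at an unadjusted p under 0.05, and 1 was called with the replicate number as a block. PIG1 there was 196, 218 and 221 without and 257, 268 and 260.1 with eco1-W216G (0.31 ± 0.09, adjusted p = 0.15). In the test between the 2 deletions, HXK1 (0.96 ± 0.20, adjusted p = 0.018), PGM2 (0.93 ± 0.23, adjusted p = 0.045) and DCS1 (0.49 ± 0.12, adjusted p = 0.036) rose more in the rad61 deletion, where 1.36% of all probe sets were called. With the replicate number as a block 9 of the 38 were called in this test. With only the groups compared in the fit 5 were called, and without both arrays that stood apart 7. The count was 4 without replicate 1 of the eco1 fob1 double mutant or replicate 2 of the rad61 deletion. None was called without replicate 2 or 3 of the eco1 fob1 double mutant, replicate 2 of the earlier-date fob1 deletion or replicate 1 of the rad61 deletion. The count was 1 without replicate 1 or 3 of the earlier-date fob1 deletion, replicate 3 of the rad61 deletion or any replicate of the eco1 rad61 double mutant.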

How the data were processed

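RNA of 27 cultures (hot acid phenol extraction) was turned into biotin-labelled cRNA with the MessageAmp III kit from 300 ng, per the labels' protocols. The authors deposited linear RMA intensity (10.4 to 39895) for each probe set, with R 2.15.2 named beside RMA in the submitters' processing notes. Whether both dates were normalized together is not given there. Array medians were 1227 to 1277. For arrays the number of replicates limits the precision. The planned tests allowed for log2 values, and log2 of the intensity was taken here.

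The file holds 5814 probe sets, of which 51 controls and 47 reporters were not tested. The other 5716 were fitted with limma 3.58.1 (R 4.3.3; lmFit and eBayes, 9 group means, 18 residual degrees of freedom, two-sided, Benjamini-Hochberg within each of 18 contrasts, threshold 0.05), a procedure tested on simulated data. The simulated noise was independent between probe sets and arrays. That test therefore does not cover arrays that stand apart or deviations shared between genes. Contrasts across dates subtract the fob1 deletion's earlier minus later difference. The labels do not name separate colonies, so p-values measure the spread between the cultures of 1 isolate. Gene symbols come from the platform's table and were looked up in the R64 gene table, which served for names only; 1 gene of the lists is not reported here. The members and lists were chosen with earlier results of these data known. The text names all members, the paralogues PIG1, TPS3 and NTH2, every listed pathway gene called for eco1-W216G in any background, the 5 genes most like the members, and ECO1, FOB1 and RAD61; GLC7, named beside its subunits, and IRA1 were added after their values were seen.

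Same-numbered replicates deviated together (every r over 0.1) in 4 of 8 pairs of groups: eco1 fob1 with fob1, eco1 rad61 with rad61, rad61 with fob1, and both mcd1 REC8 strains. Alternatives were replicate number as a block within its date, the date as a random block or not subtracted, only the groups compared, dim probe sets left out, repeated quantile normalization, median centring, a trended and robust prior, and each array left out; leaving out both arrays that stood apart was added after seeing the data.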

Additional observations from a re-analysis of the deposited data

Results flagged for a closer look

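The change with eco1-W216G differed between backgrounds, by its own test, for each of the 10 genes when the fob1 deletion strains were compared with FOB1 strains, where 39.2% of all probe sets were called. For glycogen synthesis the difference (change in the fob1 deletion minus change with FOB1, log2, limma) was -0.99 for GSY1 (adjusted p = 0.023), -0.68 for GSY2 (0.0030), -1.35 for GLC3 (0.00025) and -2.24 for GAC1 (0.00017). For glycogen breakdown it was -1.55 for GPH1 (3.4e-05) and -0.996 for GDB1 (9.0e-05). For trehalose it was -0.84 for TPS1 (0.00017), -0.72 for TPS2 (0.0020), -1.30 for TSL1 (0.00051) and -0.999 for NTH1 (1.2e-06). The rad61 deletion gave 2 such differences, -0.72 for GLC3 (0.041) and -0.64 for NTH1 (0.00045), a share of the 10 near the 23.5% of all probe sets called there. The call for GLC3 was lost in 8 of 19 alternatives. Each change was taken within its own date, so background and date cannot be told apart in these differences.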

How the results depend on the processing

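Of 63 called differences of single genes, recomputed 1000 times in all, 900 stayed past the threshold, 100 did not, and 0 changed direction. The counts in eco1-W216G against wild type, within the fob1 deletion, in the interaction with the fob1 deletion, in the eco1 rad61 double mutant against wild type, in rad61 against fob1 and between the mcd1 REC8 strains stayed within 1.5 times under all alternatives.

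Replicate number as a block gave 7 genes for the difference between the 2 deletions (0 in the fit without it), 7 for the interaction with the rad61 deletion (2), 7 for eco1 fob1 against wild type (1), 2 for mcd1 REC8 against wild type (0) and 1 for mcd1 fob1 REC8 against the fob1 deletion (0). It moved no other count of the 10 genes by over 1.5 times, although the calls over all probe sets went from 45 to 99 within the fob1 deletion and from 384 to 823 within the rad61 deletion. In fob1 against wild type they went from 894 to 1437. Fitting only the groups compared gave 3 genes for the difference between deletions, 6 for the rad61 interaction, 0 for eco1 fob1 against wild type, 0 for fob1 against wild type and 5 for eco1 fob1 against eco1-W216G. With the date as a random block, eco1 fob1, mcd1 REC8 and rad61 against wild type gave 5, 1 and 1 genes. With no date difference subtracted they gave 8, 5 and 6, and eco1 rad61 against eco1-W216G gave 1. Repeated quantile normalization gave 0 for eco1 fob1 and 3 for fob1 against wild type. Median centring gave 0 for eco1 fob1 against wild type and 1 for the difference between deletions, which was also 1 with dim probe sets left out and 1 with the trended prior. Leaving out dim probe sets removes GAC1.

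Without both arrays that stood apart, chosen after seeing the data, the difference between deletions gave 8 genes, eco1 fob1 against wild type 0, eco1 rad61 against eco1-W216G 1 and fob1 against wild type 1. That last gene was not one of those called in the fit of all arrays. Leaving out single arrays gave 0 to 2 for the difference between deletions, 1 to 4 for the rad61 interaction, 0 to 5 for eco1 fob1 against wild type, 0 to 1 for mcd1 REC8 and for rad61 against wild type and for eco1 rad61 against eco1-W216G, 1 to 6 for fob1 against wild type, 4 to 9 for eco1 fob1 against eco1-W216G, 3 to 7 for eco1 fob1 against eco1 rad61, 0 to 2 for the fob1 deletion between dates and 6 to 10 within the rad61 deletion. Fits on fewer arrays have fewer degrees of freedom; otherwise the cause was not tested. Of the 5 genes most like the members, 3 were kept without both arrays that stood apart.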

Other observations

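Other genes of the pathway were called in the later-date fob1 deletion against wild type, by calls that depended on the fit and on single arrays. In the fit of all groups 10 of the 38 rose and none fell, where 8.73% of all probe sets were called higher and 15.6% in either direction. With only these groups fitted, none of the 38 was called, and over all probe sets the calls went from 894 to 1. Of the 38, 3 were called without replicate 2 of the later-date fob1 deletion, 3 without replicate 3 of wild type and 16 without replicate 3 of that fob1 deletion. The 10 were GLG2, PHO85, PCL8, PSK1, NTH2, DCS1, HXK1, GLK1, YAK1 and TPK2, from 0.27 for PSK1 to 0.55 for HXK1 on the log2 scale. NTH2, the second neutral trehalase gene, was 775, 744 and 699 in wild type and 1002, 1033 and 829 in the fob1 deletion, with no overlap (0.36 ± 0.09, adjusted p = 0.011, limma), where its difference with eco1-W216G was 0.25 ± 0.09.

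The change with eco1-W216G in the fob1 deletion was set against that with FOB1. The difference was called negative for 17 of the 38 pathway genes and positive for 5. There 18% of all probe sets were called lower and 39.2% in either direction. SGA1 had the largest value, -1.71 ± 0.29 (adjusted p = 8.8e-05), followed by HXK1 at -1.20 ± 0.20 and PGM2 at -1.12 ± 0.23. SNF1, IRA1, IRA2, MSN2 and HXK2 were the 5 with a positive value, of which SNF1, IRA2, MSN2 and HXK2 had fallen with eco1-W216G. For genes that had fallen, a positive value does not mean a larger change. With the rad61 deletion 6 such differences were negative and 3 positive, a share near the 23.5% of all probe sets called there. SGA1 was at -2.03 ± 0.29 (adjusted p = 4.1e-05). SGA1 in the rad61 deletion was 117, 252 and 133, with replicate 2 the high array.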
